A study of Mus musculus with 4 samples.

Results

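YAP, encoded by Yap1, and genes used as readouts of its activity were described in cells sorted from mouse mammary transplants at day 3. The list held 10 genes, given by symbol: Yap1, the secreted targets Ccn1 and Ccn2, the targets Ankrd1, Axl and Nt5e, and the pathway regulators Amotl2, Lats2, Ajuba and Ptpn14. Of these, 9 had a probe set that the array annotation gives to 1 gene only, among 17097 such genes in all. Axl had none and is not analysed here. The 9 genes had 20 probe sets, and the brightest over the 4 arrays stood for each gene.

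The BC alone group came from transplants of 10000 BC cells, named the multipotent condition in the labels. The BC and LC control came from 2000 BC cells mixed with 8000 LC cells, named the unipotent condition. The labels do not expand BC and LC, which in mammary work commonly stand for basal and luminal cells. Each group had 2 arrays, each of RNA from 50 sorted cells, and neither the sorting gate, the strain, age and genotype of the mice, nor the number of animals behind an array is given in the sources used here. The presence of LC cells and the smaller number of BC cells in the control cannot be told apart. Whether 2 arrays of a group came from separate animals is not stated. The p-values set a group difference against the variation between arrays of a group, estimated partly over all genes. Part of that variation may be technical. Values are log2 RMA levels throughout, comparable between arrays for 1 probe set but not between genes.

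YAP is a transcriptional coactivator that shuttles between cytoplasm and nucleus. On stiff matrix, where cells spread and pull on their surroundings, it enters the nucleus and binds TEAD transcription factors, whereas the Hippo kinases LATS1 and LATS2 phosphorylate it and hold it in the cytoplasm. Much of this control acts on the protein, so the level of Yap1 RNA does not report YAP activity, and the RNA of its targets is the usual readout. In the mammary gland YAP and its relative TAZ have been studied mainly in basal cells and in tumours. The title of the study names collagen signalling and matrix stiffness as regulators of multipotency, and these target genes bear on that question.

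TEAD factors bind DNA at the letters CATTCC, read as GGAATG on the other strand. In the RefSeq promoter table (GRCm38.p6), which gives the 250 bases before and 50 bases after a start site, 9 of the 10 genes had an entry, and Ccn2 had none. Of these 9, 8 held the letters on either strand within the 300 bases and 7 held them in the 250 bases upstream, namely Ajuba, Amotl2, Ankrd1, Axl, Ccn1, Ptpn14 and Yap1. The match of Lats2 began 5 bases into the transcript in 1 of its 2 entries, and Nt5e held none. Over all 32851 promoters in the table, 14.7% held the letters in the 300 bases and 12.6% in the upstream part. Many genes of the list are known as direct TEAD targets, so this share is no independent result, and a match is not shown to be a bound site. The AP-1 letters TGANTCA, often found beside TEAD sites, and the CArG box of serum response factor, searched on both strands, occurred in 0 of the 9, against 7.81% and 1.63% of all promoters. Ankrd1 and Nt5e are shown because they were lower on both BC alone arrays, Amotl2 because it shared that direction against the first control, and Ccn1 because it differed little there. Capitals mark CATTCC or GGAATG, and each line runs 5′ to 3′ along the gene and ends at the base before its start site.
Ankrd1, chr19:36119845-36120094, minus strand: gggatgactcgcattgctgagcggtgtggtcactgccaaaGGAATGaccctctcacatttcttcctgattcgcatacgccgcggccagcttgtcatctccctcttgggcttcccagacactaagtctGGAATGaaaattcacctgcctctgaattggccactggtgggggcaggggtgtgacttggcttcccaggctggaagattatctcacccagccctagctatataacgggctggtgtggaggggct
Nt5e, chr9:88327359-88327608, plus strand: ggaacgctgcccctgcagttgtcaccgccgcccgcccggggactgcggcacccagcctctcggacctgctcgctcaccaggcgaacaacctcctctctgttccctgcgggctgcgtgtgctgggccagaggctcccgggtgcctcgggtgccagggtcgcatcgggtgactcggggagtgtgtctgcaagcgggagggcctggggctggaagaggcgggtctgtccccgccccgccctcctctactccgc
Amotl2, chr9:102717554-102717803, plus strand: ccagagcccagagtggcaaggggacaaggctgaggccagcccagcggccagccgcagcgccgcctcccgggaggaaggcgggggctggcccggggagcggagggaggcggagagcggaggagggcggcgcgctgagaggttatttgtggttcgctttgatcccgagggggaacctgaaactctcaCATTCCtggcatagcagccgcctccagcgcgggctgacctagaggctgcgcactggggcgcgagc
Ccn1, chr3:145649986-145650235, minus strand: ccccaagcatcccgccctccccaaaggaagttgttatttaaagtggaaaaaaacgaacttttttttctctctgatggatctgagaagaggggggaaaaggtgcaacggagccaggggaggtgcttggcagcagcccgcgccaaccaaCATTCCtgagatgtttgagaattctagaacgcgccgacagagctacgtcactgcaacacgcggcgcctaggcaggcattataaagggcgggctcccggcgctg
The matches of Ankrd1 began 210 and 123 bases before the start site, that of Amotl2 65 bases and that of Ccn1 103 bases before it.

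The second control array has to be kept in mind for every value that follows. Over all probe sets the log2 values had an SD of 1.92 on each of the BC alone arrays, against 1.90 on the first control and 1.44 on the second. The median was 4.38 and 4.37 on the BC alone arrays, against 4.38 and 4.62 on the controls. Of the 9 genes, 5 were lowest on the second control, against 34.1% of all 17097 genes. Basal and myoepithelial markers were far lower on it: Krt5, a basal keratin, had 10.47 and 10.22 on the BC alone arrays, against 10.76 and 7.12 on the controls, and Trp63, the basal factor p63, had 8.74 and 8.76 on the BC alone arrays, against 8.81 and 5.20 on the controls. Of the 9 measured basal and myoepithelial markers 8 were lowest on it, and their summed linear signal was 7379 and 5930 on the BC alone arrays, against 7536 and 692 on the controls. Over all genes that sum was 2334507 and 2334528 on the BC alone arrays, against 2282554 and 1214437 on the controls. A lower sum on the second control was thus in part shared by all genes. On the other 3 arrays the basal keratin genes Krt5 and Krt14 lay between 9.80 and 10.76 and the luminal keratin genes Krt8 and Krt18 between 9.32 and 10.42, so both kinds occurred together.

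The log2 values of the 9 genes showed no common direction. In BC alone 4 had a higher mean and 5 a lower one, and the median difference was -0.045, against -0.04 over all genes. None of the 9 passed limma at an adjusted p of 0.05, as for 0% of all genes (0 of 17097, with 680 at an unadjusted p under 0.05), and the lowest adjusted p was 0.842. With 2 arrays a group, the smallest two-sided p an exact permutation test allows is 0.333. By size, 2 of the 9, Ankrd1 and Nt5e, were at least 2-fold lower in BC alone with no overlap between the groups, a pattern of 0.895% of all genes, and 0 were that much higher, against 4.79% of all genes. The balance of genes over that size was 819 higher and 153 lower as deposited, and 334 higher and 280 lower after a further quantile normalization.

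**Figure D1:**
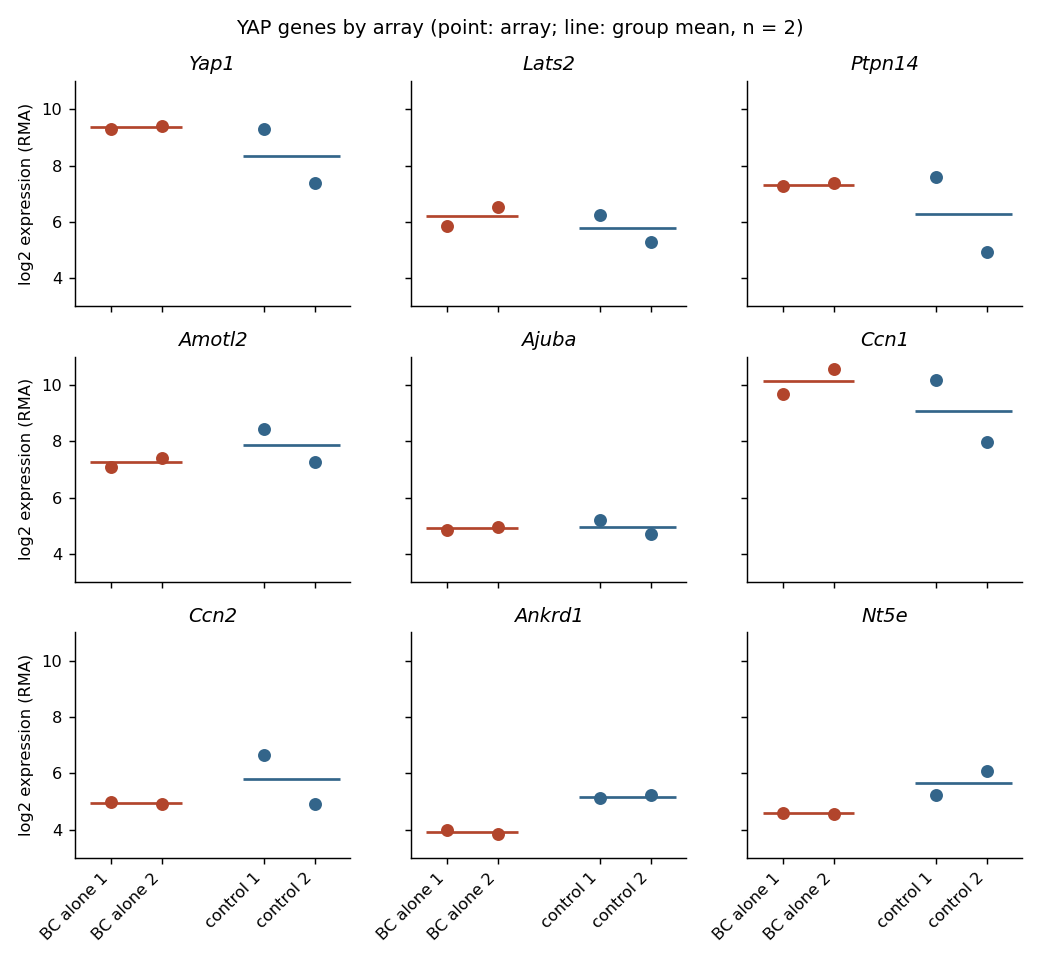
Log2 expression (RMA, vertical axis) of the 9 measured genes on each array, with BC alone in red on the left and the BC and LC control in blue on the right. Points are arrays and lines group means (n = 2). Ankrd1 and Nt5e are lower on both BC alone arrays than on both controls, Ccn2 and Amotl2 are highest on the first control, and Yap1, Ptpn14 and Ccn1 are lowest on the second control.

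Ankrd1 was lower in BC alone against either control. It encodes an ankyrin repeat protein of the nucleus and is among the most used YAP target genes. Its log2 value was 3.97 and 3.85 on the BC alone arrays, against 5.11 and 5.22 on the controls. The groups were more than 1 apart, while the arrays within each group lay close together. Means (± SD, n = 2) were 3.91 ± 0.08 for BC alone and 5.17 ± 0.08 for the control, a difference of -1.255 ± 0.30 (SE), or 2.39-fold (limma, unadjusted p = 0.0066, adjusted p = 0.842). Its dimmer probe set had 3.11 and 3.15 on the BC alone arrays, against 4.00 and 4.57 on the controls, a difference of -1.155, so both probe sets of the gene gave the same order of groups. The BC alone values lay below the array medians of 4.38 and 4.37, and no detection calls were used here, so whether they lay above background is not known.

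Nt5e was lower in BC alone by its brightest probe set. It encodes CD73, a surface enzyme that makes adenosine from AMP, and belongs to published YAP target signatures. Its log2 value was 4.60 and 4.54 on the BC alone arrays, against 5.22 and 6.07 on the controls. The groups did not overlap, and the second control was the highest array, unlike for most of the list. The difference was -1.075 ± 0.39 (SE), 2.11-fold (limma, unadjusted p = 0.036, adjusted p = 0.842). A second probe set had 5.05 and 4.43 on the BC alone arrays, against 4.63 and 5.57 on the controls, and there the groups overlapped. The third, with values from 4.37 to 4.58 on all arrays, differed by -0.055. The mean of its 3 probe sets differed by -0.50. With median centring the brightest probe set differed by -0.95. Its BC alone values lay near the array medians of 4.38 and 4.37, so whether they lay above background is not known.

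Ccn2 and Amotl2 were highest on the first control array. Ccn2, formerly Ctgf, encodes a matricellular protein secreted by cells under tension. Its only probe set had 4.98 and 4.90 on the BC alone arrays, against 6.65 and 4.91 on the controls. The BC alone values lay near the array medians of 4.38 and 4.37, so whether they lay above background is not known. The second control lay between the BC alone arrays, and the mean difference of -0.84 ± 0.60 (SE, limma, adjusted p = 0.842) rested on the first control. Against that array Ccn2 was 1.71 lower on the log2 scale, and against the second the difference was 0.03.

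Amotl2 encodes a protein of the angiomotin family, which binds YAP at cell junctions and is itself a YAP target. It had 7.10 and 7.42 on the BC alone arrays, against 8.44 and 7.27 on the controls. The groups overlapped through the second control, and the difference was -0.595 ± 0.47 (SE, limma, adjusted p = 0.842). The place of that control depended on how the arrays were scaled. After a further quantile normalization Amotl2 had 6.91 and 7.21 on the BC alone arrays, against 8.17 and 8.16 on the controls, and the groups no longer overlapped. The difference was then -1.10 ± 0.21 (limma, unadjusted p = 0.0052, adjusted p = 0.881), and it was -1.15 ± 0.21 after cyclic loess (adjusted p = 0.761). Over all settings run, the adjusted p of Amotl2 in limma lay between 0.665 and 0.999. Under median centring the overlap remained, with 7.16 and 7.49 on the BC alone arrays, against 8.50 and 7.09 on the controls.

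**Figure D2:**
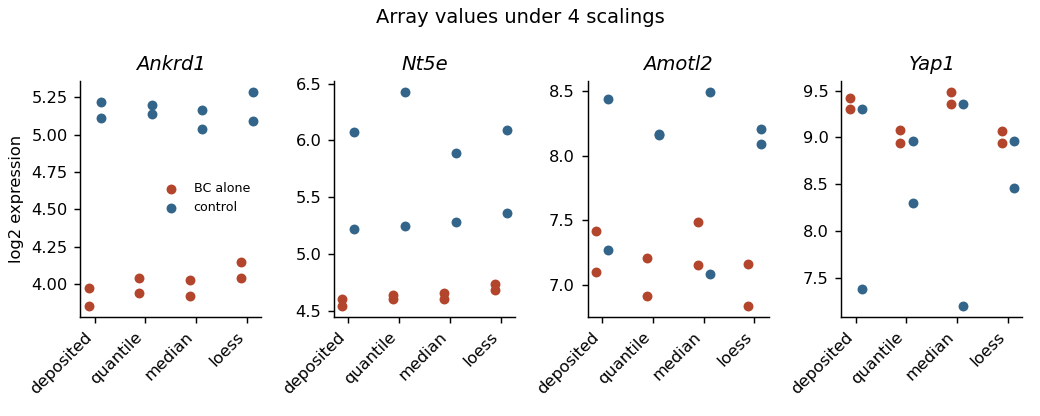
Log2 expression of Ankrd1, Nt5e, Amotl2 and Yap1 on each array as deposited and after a further quantile normalization, median centring or cyclic loess, with BC alone in red to the left and the control in blue to the right; each panel has its own vertical axis. Ankrd1 and Nt5e are separated under all 4 scalings, Amotl2 under quantile normalization and cyclic loess only, and Yap1 under none.

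Yap1 itself lay at the level of the first control in BC alone. Its log2 value was 9.30 and 9.42 on the BC alone arrays, against 9.30 and 7.38 on the controls. Only the second control stood apart, and the difference of 1.02 ± 0.65 (SE, limma, adjusted p = 0.842) was 0.06 against the first control alone. The dimmer probe set had 7.78 and 7.97 on the BC alone arrays, against 8.17 and 7.09 on the controls, with a difference of 0.245. After quantile normalization the second control came up to 8.30 and the difference was 0.38.

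Ccn1 followed Yap1 rather than Ccn2. It encodes Cyr61, a secreted matricellular protein related to Ccn2 and an immediate-early gene. Its log2 value was 9.68 and 10.56 on the BC alone arrays, against 10.19 and 7.96 on the controls. The first control lay between the BC alone arrays, and only the second was lower. The difference was 1.045 ± 0.78 (SE, limma, adjusted p = 0.842), and the dimmer probe set differed by 0.92. For the brightest probe set the difference was 0.34 after quantile normalization and 0.22 after cyclic loess. Against the first control alone the sign turned, at -0.07. In the same comparison Ccn2 was 1.71 lower, and the difference between these related targets was not tested.

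Among the regulators, Ptpn14 resembled Yap1. It encodes a tyrosine phosphatase that binds YAP and retains it in the cytoplasm. It had 7.26 and 7.37 on the BC alone arrays, against 7.60 and 4.94 on the controls, a difference of 1.045 ± 0.85 (SE, limma, adjusted p = 0.842). It was low on the second control only, and against the first control the difference was -0.285. The second probe set had 7.30 and 6.61 on the BC alone arrays, against 7.04 and 4.94 on the controls, and repeated this. The third and dimmest had 4.40 and 4.64 on the BC alone arrays, against 3.82 and 4.33 on the controls, with no overlap and a difference of 0.445.

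Lats2, the kinase that phosphorylates YAP and also a YAP target, had 5.87 and 6.54 on the BC alone arrays, against 6.24 and 5.30 on the controls. The groups overlapped, and the difference was 0.435 ± 0.45 (SE, limma, adjusted p = 0.842). Of its 4 dimmer probe sets 3 had the opposite direction, with differences of -0.18, 0.04, -0.155 and -0.24. Ajuba, a LIM domain protein that binds and restrains LATS kinases, had 4.84 and 4.97 on the BC alone arrays, against 5.21 and 4.69 on the controls. Its groups overlapped too, with a difference of -0.045 ± 0.33 (SE, limma, adjusted p = 0.963). The values of Ajuba lay near the array medians, so whether they lay above background is not known.

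**Figure D3:**
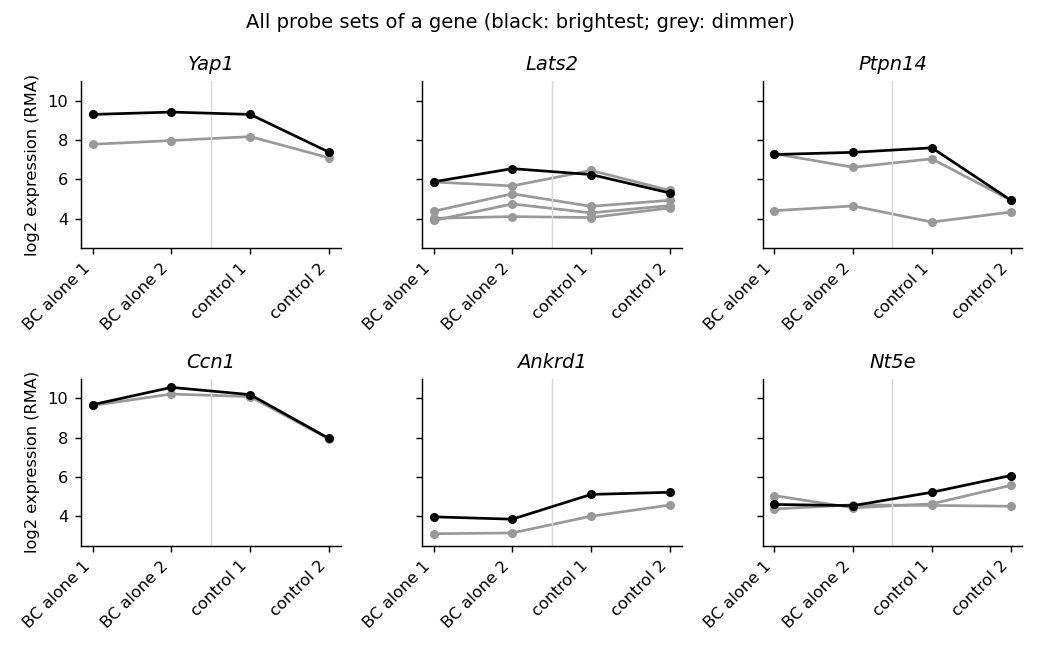
Log2 expression (RMA) of all probe sets of the 6 genes with more than 1, on the BC alone arrays left of the grey line and the control arrays right of it; black is the brightest probe set and grey the dimmer ones, and lines only join the values of 1 probe set. The probe sets of Ankrd1 and of Ccn1 run in parallel, while those of Lats2 and Nt5e do not.

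Set against the first control alone, 8 of the 9 genes were lower in BC alone and Yap1 was higher by 0.06, where 48.8% of all genes were lower. The median difference of the 9 was then -0.305, against 0.005 over all genes. The differences were -1.71 for Ccn2, -1.20 for Ankrd1, -1.18 for Amotl2, -0.65 for Nt5e and -0.305 for Ajuba, and lay between -0.285 and 0.06 for Ptpn14, Ccn1, Lats2 and Yap1. Ccn2, Ankrd1 and Amotl2 had a mean at least 2-fold lower than that array with both BC alone arrays below it, as had 2.09% of all genes. Set against the second control alone, Ccn1, Ptpn14 and Yap1 were 2.16, 2.375 and 1.98 higher, and Ankrd1 and Nt5e remained lower, at -1.31 and -1.50. In that comparison 18.1% of all genes were at least 2-fold higher without overlap and 4.23% that much lower. Each of these rests on 1 control array, and Ankrd1 and Nt5e were the 2 genes of the list lower in BC alone by at least 0.5 against either control.

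**Figure D4:**
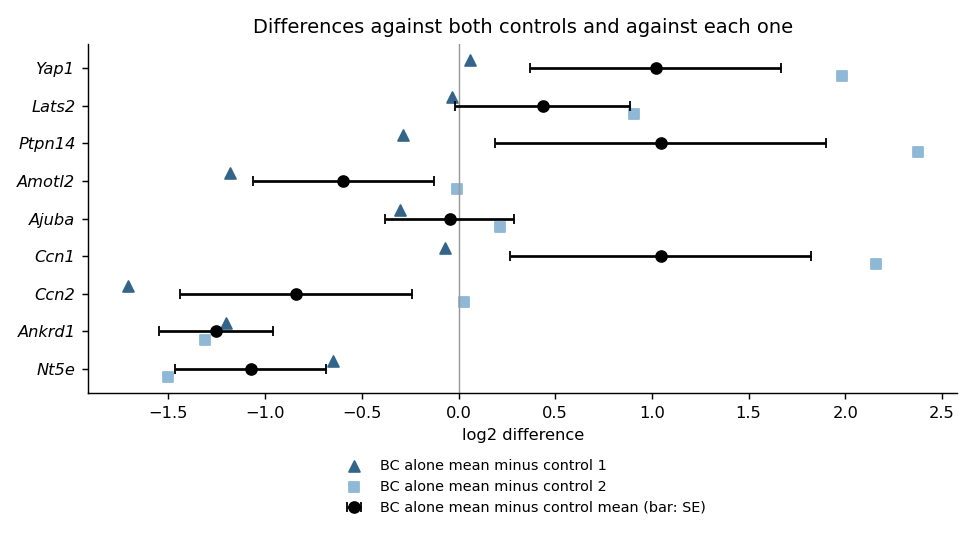
Log2 difference (horizontal axis) of the BC alone mean from the mean of both controls (black circles, bars show the SE of the fit), from the first control (triangles) and from the second control (squares) for the 9 genes. The 3 symbols lie close together for Ankrd1 and spread over more than 2 log2 units for Ccn1 and Ptpn14.

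Over the 4 arrays, the deviations of a gene from its own mean were set against those of the other genes by Euclidean distance. Within the list Yap1 was nearest to Ptpn14 (0.52 log2 units), Ccn1 to Yap1 (0.58), Ccn2 to Amotl2 (0.55) and Ankrd1 to Nt5e (0.55). Over all genes with an SD of at least 0.5 times that of the gene itself, Yap1 was nearest to Cdca4, Atp6v0d1 and Sdc4 (0.017 to 0.041), all lowest on the second control. Ccn1 was nearest to Mdk, Poldip3 and Serping1 (0.14 to 0.20), and Ccn2 to Dpysl5, Kcnma1 and Rsbn1l (0.14 to 0.22), all high on the first control. Ankrd1 was nearest to 1110064A23Rik, Zfp764 and Klf1 (0.13 to 0.18), of which Klf1 had 3.80 and 3.69 on the BC alone arrays, against 5.16 and 5.09 on the controls. These likenesses rest on 4 arrays that share 1 array standing apart, and are a description.

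The listed partners and regulators of YAP, some of which restrain it, mostly had higher means in BC alone. The 16 genes of this list include Yap1, Amotl2, Ajuba and Ptpn14. Of the 16, 12 had a higher mean in BC alone and 4 a lower one, against 7991 higher and 9037 lower of all 17097 genes. In limma 0 passed an adjusted p of 0.05. In 6 the BC alone arrays lay above both controls, against 16.8% of all genes, and in 0 below, against 19.6%. The list median was 0.68, and 0.16 against the first control alone, 0.23 after quantile normalization and 0.15 after cyclic loess. Wwtr1, which encodes TAZ, the close relative of YAP, had 7.99 and 8.51 on the BC alone arrays, against 7.74 and 6.32 on the controls. Its difference was 1.22 ± 0.54 (SE, limma, adjusted p = 0.842), and 0.51 against the first control alone. It stayed separated after quantile normalization and cyclic loess, at 0.80 and 0.65.

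Of the TEAD factors, Tead1 had 8.25 and 8.23 on the BC alone arrays, against 7.93 and 6.84 on the controls, a difference of 0.855 ± 0.44 (SE). It did not overlap under quantile normalization or cyclic loess either, where it differed by 0.31 and 0.26. Tead2 had 7.56 and 8.60 on the BC alone arrays, against 7.41 and 7.55 on the controls, and its difference of 0.60 turned to -0.075 after quantile normalization. Tead3 and Tead4 overlapped, with differences of 0.49 and -0.34, and that of Tead4 was 0.06 against the first control alone. Vgll3, a TEAD cofactor, had 5.65 and 5.08 on the BC alone arrays, against 3.90 and 3.96 on the controls. The control values lay below the array medians of 4.38 and 4.62, so whether they lay above background is not known. Both controls were more than 1 below both BC alone arrays, the difference was 1.435 ± 0.34 (SE, limma, unadjusted p = 0.0066, adjusted p = 0.842), and it lay between 1.05 and 1.72 when arrays were rescaled, probe sets averaged or any 1 array left out. Vgll4, a TEAD repressor, differed by 0.455 with overlap, and by -0.03 against the first control alone.

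Relatives of the regulators were measured beside them. Limd1 and Wtip, LIM proteins related to Ajuba, did not overlap and were higher in BC alone, though Wtip overlapped after quantile normalization and cyclic loess. Limd1 had 7.94 and 7.89 on the BC alone arrays, against 7.66 and 6.57 on the controls, and Wtip had 7.64 and 6.64 on the BC alone arrays, against 6.23 and 6.30 on the controls. Amot and Amotl1, related to Amotl2, differed by 0.155 (-0.05 after quantile normalization) and 0.755 (-0.18 against the first control alone) with overlap, and Ptpn21, related to Ptpn14, by -0.33. None of these passed limma. On all arrays Ptpn21 lay below the array median.

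Of the upstream Hippo kinase module, 10 of 11 listed genes were measured, 8 with a higher and 2 with a lower mean in BC alone, and 0 passed limma. The list median was 0.33 and turned to -0.04 against the first control and -0.02 after quantile normalization, and none of the 10 was at least 2-fold different without overlap, against 4.79% of all genes higher and 0.895% lower. In a further list of published YAP targets, 13 of 14 were measured, of which 11 had a higher and 2 a lower mean in BC alone, with a median of 0.635. That median was -0.095 against the first control alone and 0.17 after quantile normalization, and 0 were 2-fold different without overlap, against the same shares of all genes.

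**Figure D5:**
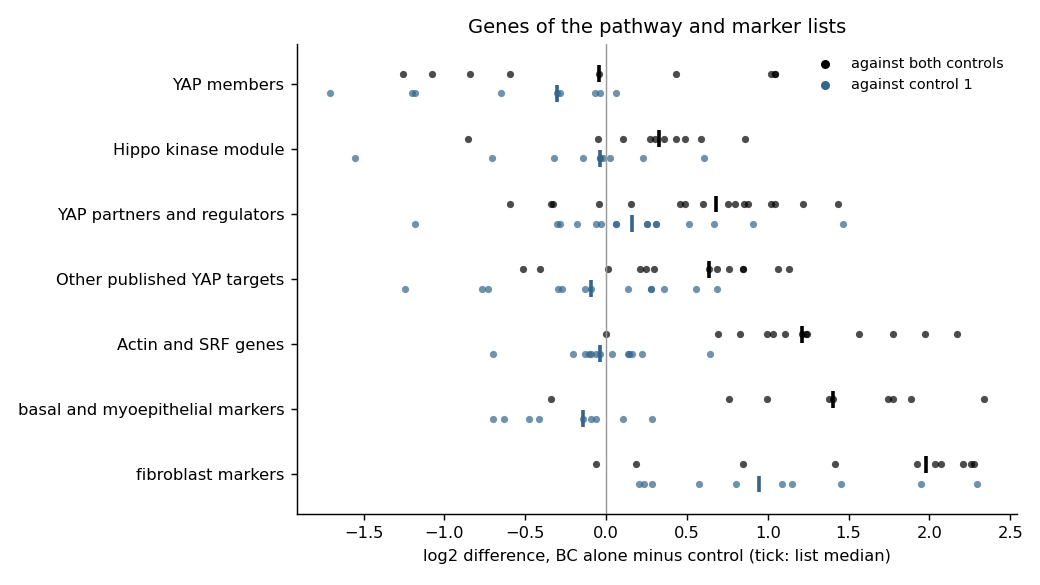
Log2 difference of each measured gene of 7 lists (rows), BC alone minus the mean of both controls (black) and minus the first control (blue), with a tick at the list median. Against both controls each of these lists except that of YAP and its targets has a median above 0.3. Against the first control the fibroblast markers have a median of 0.95 and the YAP partners and regulators of 0.16, and the other 5 lists lie below 0.

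Unlike Ccn2, whose groups overlapped, Ccn3, another gene of the Ccn family, was higher in BC alone. It had 5.86 and 5.45 on the BC alone arrays, against 3.68 and 3.74 on the controls. As for Vgll3, the control values lay below the array medians of 4.38 and 4.62, and whether they lay above background is not known. The groups were well separated, with a difference of 1.945 ± 0.32 (SE, limma, unadjusted p = 0.0012, adjusted p = 0.842), and it was between 1.74 and 2.15 when arrays were rescaled, probe sets averaged or any 1 array left out. Ccn4 had 6.14 and 4.71 on the BC alone arrays, against 4.62 and 4.98 on the controls, and Ccn5 and Ccn6 differed by -0.185 and -0.08 (Ccn6 by 0.10 after quantile normalization), all with overlap. On all arrays Ccn6 lay below the array median. For the family of Axl, the related receptor genes Tyro3 and Mertk differed by 0.18 and 0.58 with overlap, as did their ligand Gas6 at 0.51 (-0.17 after quantile normalization). The second ligand, Pros1, had 6.69 and 7.05 on the BC alone arrays, against 6.24 and 5.37 on the controls, a difference of 1.065 ± 0.41 (SE, limma, adjusted p = 0.842).

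Genes of the actin cytoskeleton and of serum response factor, the other transcription route that responds to tension, were followed as a comparison. Of 13 measured genes 12 had a higher mean in BC alone, with a median of 1.21, but 12 of the 13 were lowest on the second control, and against the first control the median was -0.035. Srf, Vcl and Flna, 3 of the 13, were at least 2-fold higher without overlap, against 4.79% of all genes. Srf, the factor itself, had 9.29 and 9.44 on the BC alone arrays, against 8.72 and 7.94 on the controls. Vcl, vinculin of focal adhesions, had 10.17 and 9.95 on the BC alone arrays, against 9.92 and 7.78 on the controls, and Flna, an actin crosslinker, had 10.77 and 10.58 on the BC alone arrays, against 10.54 and 8.60 on the controls. After quantile normalization Srf and Vcl overlapped, at 0.305 and 0.49. For Vcl and Flna the difference from the first control was 0.14 or less, and for Srf it was 0.645.

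Markers of other cell types differed between the groups as well. Of 10 fibroblast markers 9 had a higher mean in BC alone, all 10 had a mean above the first control, and their summed linear signal was 6054 and 6857 on the BC alone arrays, against 3906 and 1354 on the controls. Thy1 had 8.65 and 8.39 on the BC alone arrays, against 6.57 and 5.92 on the controls, and Col1a1 had 10.84 and 10.91 for BC alone, against 10.30 and 8.62 for the controls, while Pdgfra lay between 3.57 and 4.06 on all arrays, below the array medians. The summed signal of 4 pericyte markers was 1085 and 623 on the BC alone arrays, against 246 and 362 on the controls, and 3 of them had a higher mean in BC alone and 1 a lower one. Rgs5 had 8.41 and 7.78 for BC alone, against 4.45 and 5.75 for the controls, while Pdgfrb, named after its values were seen, had 6.74 and 6.62 for BC alone, against 6.20 and 7.37 for the controls. Of 7 endothelial markers all 7 had a higher mean in BC alone, with sums of 807 and 720 there, against 504 and 431 on the controls, though Pecam1 differed by 0.07. After quantile normalization 5 of the 7 were higher, and Pecam1 differed by -0.47. Of 11 luminal markers 7 had a higher mean in BC alone and 4 a lower one. Of the 11, 3 were at least 2-fold higher without overlap, against 4.79% of all genes. These were Krt8, Gata3 and Esr1, and Krt8 differed by 0.20 from the first control alone. Chosen after their values were seen, Esr1 had 8.13 and 9.19 for BC alone, against 6.48 and 6.72 for the controls, and Foxa1 had 5.42 and 4.21 for BC alone, against 4.79 and 7.36 for the controls. The sum of the 11 was 3753 and 4559 on the BC alone arrays, against 4034 and 1562 on the controls. As given above, the sum over all genes was also lower on the second control. Of 8 immune markers 5 had a lower mean in BC alone and 3 a higher one. Their sums were 341 and 418 on the BC alone arrays, against 485 and 437 on the controls, and Ptprc lay between 2.91 and 4.21. At 2-fold without overlap 1 was lower, against 0.895% of all genes, and 1 higher, against 4.79%. Named after their values were seen, these were Lyz2 and Cd3e. Lyz2 had 6.12 and 6.93 for BC alone, against 7.46 and 7.70 for the controls. Cd3e had 4.91 and 4.47 for BC alone, against 3.15 and 4.15 for the controls, which lay below the array medians. YAP target genes are expressed in fibroblasts and pericytes as well as in epithelium, and the part of these cells in the values of Ankrd1, Nt5e, Vgll3, Ccn3 and the other genes was not tested. With RNA from pools of cells, fewer cells of a type and less RNA per cell cannot be told apart.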

How the data were processed

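The authors deposited log2 levels, 1 for each probe set of an Affymetrix mouse array. Per the submitters' processing notes they used RMA and affy (versions not given in the sources used here). This method normally corrects background, equalises quantiles and summarises probes, but the 4 deposited columns differ in distribution, so whether they were normalized together is not known. Of 45141 probe sets, 28898 had 1 gene symbol in the platform annotation, 551 had several and 15692 are not named here. The brightest probe set by mean stood for a gene, which gave 17097 genes, with no filter on dim ones.

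BC alone was compared with the BC and LC control across all genes in limma 3.58.1 (R 4.3.3; lmFit, eBayes, two-sided, Benjamini-Hochberg, threshold 0.05), with 2 residual and 3.50 prior degrees of freedom. The fit was also run on simulated data in which a gene had the same spread on all arrays. That run cannot check the fit for an array like the second control. Members and lists were chosen with earlier results of these data known. The named genes are all members, all partners and paralogs, genes of the other pathway lists at least 2-fold different without overlap, and fixed markers. The markers Pdgfrb, Gata3, Esr1, Foxa1, Lyz2 and Cd3e were not among the fixed ones and were named after their values were seen. Lists also held Stk3, Nuak2, Tagln, Krt17, Prlr and Cspg4, for which no probe set of 1 symbol was found among those named. Numbers were not used as pairs. Deviations of same-numbered arrays from their group means had r = -0.018 over genes. With 2 arrays a group this is 1 correlation that includes the second control, so it cannot show whether arrays were paired. Alternatives were other scalings, the mean of probe sets, dimmer probe sets, a filter on dim genes, other variance models, a replicate block and each array left out. The number of arrays limits the precision.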

Additional observations from a re-analysis of the deposited data

How the results depend on the processing

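In limma 0 genes and 0 members were called in all settings but 2: 97 genes with an intensity trend and 108 with the replicate block, among them 0 members. Whether the numbers pair the arrays is not known, and the block left 1 residual degree of freedom. The signs of Ankrd1, Nt5e, Amotl2 and Yap1 held in every setting run, but of these only Ankrd1 kept its size, between -1.315 and -1.10. With no array left out, the adjusted p of Ankrd1 in limma lay between 0.146 and 0.881. Amotl2 fell to -0.01 without the first control and Yap1 to 0.06 without the second control. The dimmest probe set of Nt5e differed by -0.055. The dimmer probe set of Yap1 had 7.78 and 7.97 on the BC alone arrays, against 8.17 on the first control. Its sign against that control was thus turned. The 2 members at least 2-fold lower without overlap became 3 after quantile normalization and cyclic loess, adding Amotl2, and 1, Ankrd1, with median centring and with the mean of probe sets. Leaving out 1 array gave 2 or 3 lower members (without the second control Ccn2, Ankrd1 and Amotl2) and 0 to 3 higher ones, namely Yap1 and Ccn1 without the first BC alone array, and with Ptpn14 without the first control. The shares of all genes moved too, to 7.17% higher without the first BC alone array, and to 18.1% higher and 4.23% lower without the first control. The median member difference lay between -0.305 and 0.215. Median centring moved the median of all genes by over 0.1, to 0.085 against -0.04.

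Signs turned as follows, and the cause was not tested. Ajuba differed by 0.056 after quantile normalization, 0.08 with median centring and 0.049 with cyclic loess, and by -0.305 to 0.215 when single arrays were left out. Without single arrays Ccn1 ran from -0.07 to 2.16, Ccn2 from -1.71 to 0.03, Lats2 from -0.035 to 0.905 and Ptpn14 from -0.285 to 2.375. Lats2 differed by -0.02 with the mean of probe sets and by -0.18, -0.155 and -0.24 in 3 dimmer ones. No detection calls were given, so signal over background could not be judged.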
